A study of Mus musculus with 6 samples.

Results

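The microRNA miR-21a gives rise to 2 mature strands, mmu-miR-21a-5p and mmu-miR-21a-3p, and their levels were followed in the livers of 6 male mice. Both strands were picked by name from a table of read counts for 1907 mature microRNAs, and both had enough reads to be tested. The mice were of mixed background and 12 weeks old per the labels. In one group, 3 mice ate 100% granulated regular food, and in the other, 3 mice ate for 4 weeks a mix of 75% regular food and 25% soy bean powder. Small RNA of each liver was sequenced as 1 library, and the libraries held 5727546 to 12762916 microRNA reads, the fewest in regular replicate 3. Which diet a library came from was taken from the labels alone. No value in the files checked it independently. Every direction between the diets, that of miR-21a-3p included, therefore holds only if these labels are right and would turn if they were exchanged. The study lists positive log2 fold changes in soy-fed mice for miR-455-3p and miR-145a-5p, and reports that qRT-PCR, a separate assay, bore both out. As labelled, the counts gave negative ones, -1.98 and -0.96 (edgeR, soy minus regular), with every soy liver below every regular liver. The cause of this conflict in sign was not tested.

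A microRNA precursor folds into a hairpin, and cutting it leaves a short duplex of a strand from the 5′ side (5p) and a strand from the 3′ side (3p). As a rule one strand, the guide, is kept in the Argonaute protein and pairs through its seed, bases 2 to 8, with messenger RNAs that it represses, while the other, the passenger, is mostly degraded. miR-21 is known as a microRNA of growth, injury and inflammation. It is made in many cell types, hepatocytes and the immune and stellate cells of the liver among them, and is induced by STAT3, AP-1 and NF-kB signalling. The tumour suppressor Pdcd4 is among its best known targets, and in liver it has been studied in regeneration, fibrosis and steatosis.

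Both strands, and the mature sequences whose names place them beside miR-21a, are shown to tell which seeds the counted reads carry. The sequences are from RefSeq (GRCm38.p6), 5′ to 3′, with the seed in capitals.
miR-21a-5p: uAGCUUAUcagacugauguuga
miR-21a-3p: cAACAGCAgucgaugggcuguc
miR-21b: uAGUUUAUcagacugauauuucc
miR-21c: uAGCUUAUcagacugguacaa

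The 5p strand lies at chr11:86584120-86584141 and the 3p strand at chr11:86584082-86584103, on the minus strand. Their hairpin of 92 bases spans chr11:86584067-86584158, and in GENCODE M21 (GRCm38) it falls inside an exon of Vmp1, a gene for a membrane protein of autophagy, in the untranslated part at the gene's 3′ end. The strands are 22 bases each, with 16 bases between them in the hairpin. In the structure predicted by RNAfold, 19 of the 22 bases of the 5p strand were paired with bases of the 3p strand.

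The strands carry different seeds. Among 1679 mature mouse microRNA names of the RefSeq table, the 5p seed AGCUUAU was shared by miR-21c alone, and the 3p seed AACAGCA by 0 others. With positions counted from the 5′ end and the base of miR-21a-5p first, miR-21b differed in the seed by C4U, and miR-21c differed only past the seed, by A16G, G18A, U19C, U20A and G21A. Reads given to these names were nearly absent. miR-21b had 0 reads in every library, which allows up to 3 reads in a library, or 0.235 to 0.524 CPM, and miR-21c had 3 reads in soy replicate 3 and 0 elsewhere. Reads named miR-21a therefore made up almost all reads with that seed.

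miR-21a-5p, the guide strand, was among the 10 most abundant microRNAs of these livers. It had 362636, 481472 and 331515 reads in the regular libraries and 536733, 494408 and 658320 in the soy libraries. As a share of all microRNA reads this was 3.54%, 4.663% and 5.788% under regular chow and 4.205%, 4.928% and 6.47% under soy, which ranked it from 4th to 8th in a library. The exact 95% binomial interval in regular replicate 1 was 3.5291% to 3.5517%, so counting error was small beside the spread between mice. Intervals of this kind cover counting error only, and whether shares of reads follow the amounts of RNA in the tissue was not tested.

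Scaled for library size and composition, miR-21a-5p stood at 35446, 48118 and 53048 CPM (counts per 1e6 reads of the TMM-scaled library) in regular livers and at 43654, 49192 and 65939 CPM in soy livers. Ordered by level, regular and soy livers alternated from the lowest (regular replicate 1) to the highest (soy replicate 3), so the groups overlapped. In each diet the level rose with the replicate number, and each soy liver stood above the regular liver of the same number. The between-mouse coefficient of variation was 19.9% in regular and 21.9% in soy livers, against a counting error of at most 0.174% in any library.

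The question put to these data is whether soy in the diet alters the microRNAs of the liver, and for the guide strand the test did not pass. Soy livers held 52930 ± 11600 CPM (SD, n = 3) and regular livers 45540 ± 9080 CPM (SD, n = 3), a log2 fold change of 0.22 ± 0.19 (SE) with a 95% interval of -0.22 to 0.65, or 0.861-fold to 1.57-fold. edgeR's quasi-likelihood test gave it an adjusted p of 0.982 and the 122nd place among the 437 microRNAs tested. Most of that difference rested on soy replicate 3, without which the log2 fold change was 0.028. As a share of all reads the strand took 5.2% ± 1.16 in soy and 4.66% ± 1.12 in regular libraries (SD, n = 3; exact permutation p = 0.6, two-sided), and the sign of this difference turned without soy replicate 3 or without regular replicate 1.

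miR-21a-3p, the passenger strand, was at lower levels by more than 2 orders of magnitude, and here every soy liver lay above every regular liver. It had 1539, 1831 and 1349 reads in the regular libraries and 3551, 2402 and 4323 in the soy libraries. In CPM this was 150.4, 183.0 and 215.9 in regular and 288.8, 239.0 and 433.0 in soy livers, ranks 85 to 94 and 67 to 82 in the libraries. The lowest soy liver was replicate 2 and the highest regular liver replicate 3, and the gap between them, 215.9 against 239.0 CPM, was narrow beside the spread within soy.

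**Figure D1:**
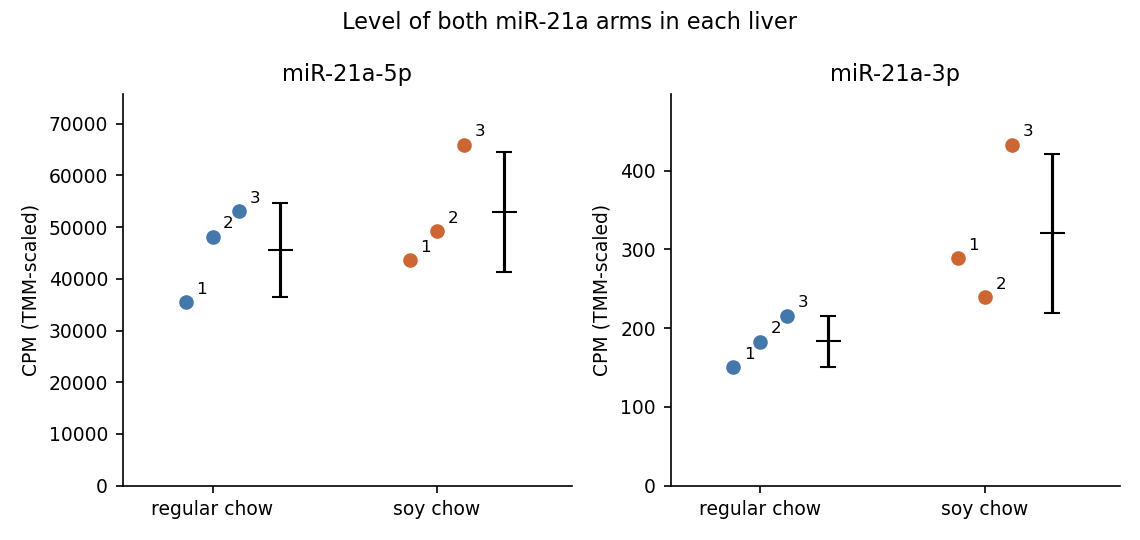
Level of miR-21a-5p (left) and miR-21a-3p (right) in each liver, in CPM of the TMM-scaled library. Points are livers, numbered by replicate, and the bars show the mean ± SD of 3 livers. The 5p values of the diets overlap, from 35446 to 53048 CPM in regular and 43654 to 65939 CPM in soy livers, and the 3p values do not, from 150.4 to 215.9 and 239.0 to 433.0 CPM.

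Soy livers held 320.3 ± 101 CPM (SD, n = 3) of miR-21a-3p and regular livers 183.1 ± 32.7 CPM (SD, n = 3). The log2 fold change was 0.81 ± 0.26 (SE), 1.75-fold with a 95% interval of 1.17-fold to 2.61-fold before any adjustment. Over all 437 microRNAs tested the strand did not pass edgeR's test (adjusted p = 0.723), although it came 6th by p (0.0109 unadjusted). Of these 437, edgeR called 0, or 0%, at an adjusted p under 0.05, limma-voom 0 and DESeq2 2, neither of them a miR-21a strand. At an unadjusted p under 0.05 edgeR gave 22, and 10 of them, or 2.29%, were higher in soy, with miR-21a-3p as 1 of the 2 strands of miR-21a. Ranges that did not overlap, with soy higher, were found for 32 microRNAs, or 7.32%, and again for 1 of the 2 strands.

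The call on miR-21a-3p depended on the filter. With every microRNA of at least 1 read entered, 716 in all, edgeR called it (log2 fold change 0.89, adjusted p = 0.00902) as 1 of 8 microRNAs, or 1.12%, and the cause of that shift was not tested. Stricter filters did not lead edgeR to call it, with an adjusted p of 0.296 at 10 reads in all 6 libraries and 0.567 at 10 reads in at least 3. With each library left out in turn its log2 fold change ranged from 0.528, without soy replicate 3, to 0.979, without soy replicate 2, and it passed in none of these fits. DESeq2 gave 0.812 with an adjusted p of 0.215, and limma-voom 0.786 with 0.507. The direction was the same in all 16 alternative fits. With every soy liver above every regular liver, leaving out a library could not have turned it.

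**Figure D2:**
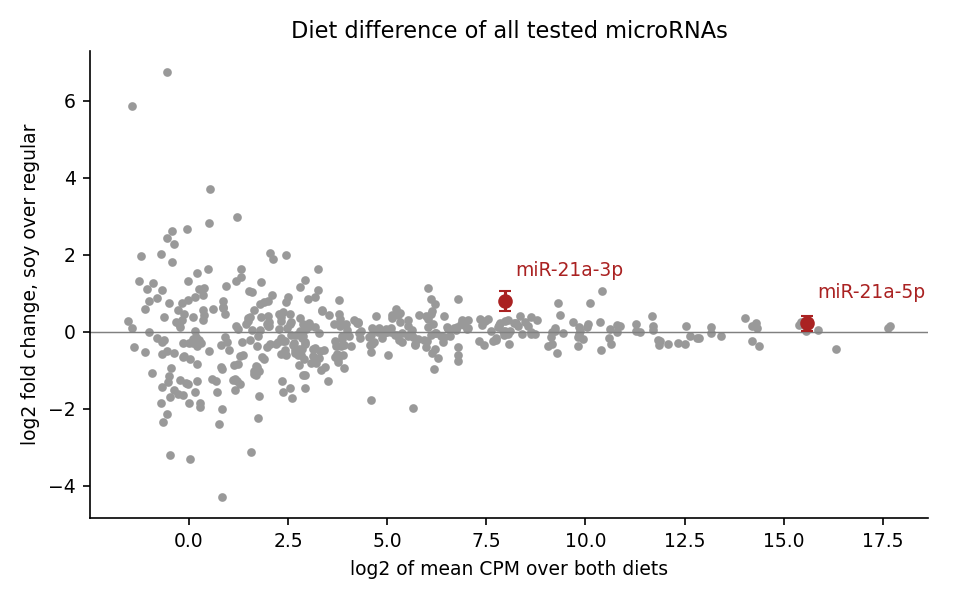
Log2 fold change of soy over regular livers (vertical) against the log2 of the mean CPM over both diets (horizontal) for the 437 microRNAs tested. Grey points are microRNAs, and red points with bars (± SE) are the strands of miR-21a, at 0.81 for 3p and 0.22 for 5p.

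Whether the strands differed from each other in their response was asked with the ratio of 3p to 5p reads within each library, which needs no scaling between libraries. For every 1000 reads of the 5p strand there were 4.244, 3.803 and 4.069 reads of the 3p strand in the regular livers and 6.616, 4.858 and 6.567 in the soy livers. The regular livers lay close together, with a coefficient of variation of 5.5%, and all were below the lowest soy liver, replicate 2. Soy replicates 1 and 3 were nearly alike in this ratio although the 5p strand stood at 43654 CPM in one and 65939 CPM in the other.

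In percent, the 3p strand made up 0.4226%, 0.3789% and 0.4053% of the miR-21a reads under regular chow and 0.6572%, 0.4835% and 0.6524% under soy. The nearest values of the groups had exact 95% binomial intervals of 0.4018% to 0.4442% (regular replicate 1) and 0.4644% to 0.5032% (soy replicate 2), which did not touch. Such intervals cover counting error only, and those of soy replicates 1 and 2 did not touch each other either. The means were 0.402% ± 0.022 and 0.598% ± 0.0989 (SD, n = 3; exact permutation p = 0.1, two-sided). With 3 mice against 3, 0.1 is the smallest p this test can give. Over the 4 values tested this way the Benjamini-Hochberg value was 0.133 for this share and also for the 3p share of all reads, which was 0.0314% ± 0.00978 in soy and 0.0188% ± 0.00436 in regular libraries (exact permutation p = 0.1, SD, n = 3).

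**Figure D3:**
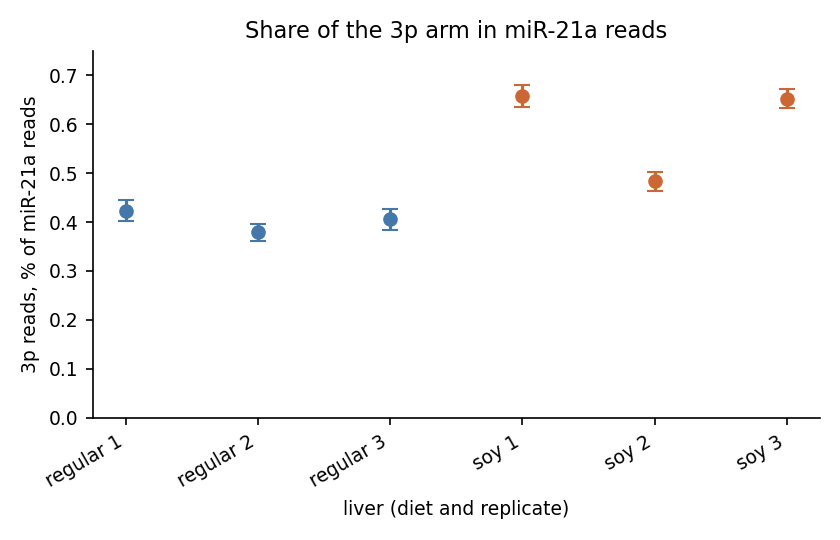
Share of 3p reads among all miR-21a reads in each liver, in percent, with exact 95% binomial intervals that cover counting error only. Regular livers (blue) lie between 0.3789% and 0.4226% and soy livers (orange) between 0.4835% and 0.6572%.

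Set among all hairpins with both strands measured, the difference in ratio did not pass the test. The log2 ratio of 3p to 5p was -7.39 ± 0.254 in soy and -7.95 ± 0.0799 in regular livers (SD, n = 3), a difference of 0.56 ± 0.29 (SE) with a 95% interval of -0.16 to 1.29. limma gave it an adjusted p of 0.811 over 118 hairpins, and it was 9th by p. Over these hairpins limma called 0, or 0%, at an adjusted p under 0.05. At an unadjusted p under 0.05 there were 6, of which 2, or 1.69%, had the higher ratio in soy, and miR-21a was not among them. A higher ratio in every soy liver than in any regular liver was found for 6 hairpins, or 5.08%, miR-21a included. limma draws the spread of each hairpin toward that of the others, and miR-21a had the 5th smallest within-group SD of the log2 ratio, 0.188 against a median of 0.709 over all 118 and of 0.41 over the 46 with a mean of at least 100 reads of both strands. A count model with the 5p reads as offset, chosen after the data were seen, gave a difference of 0.57 ± 0.24 (SE) and an adjusted p of 0.536 in edgeR, with 0 hairpins called.

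**Figure D4:**
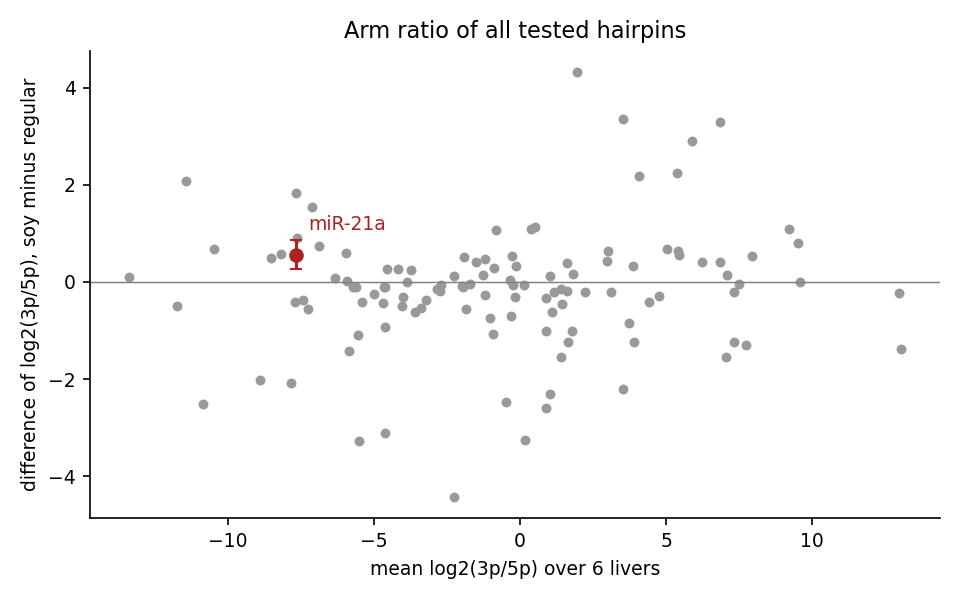
Difference in log2(3p/5p) between soy and regular livers (vertical) against the mean log2(3p/5p) over 6 livers (horizontal) for 118 hairpins with both strands measured. Grey points are hairpins, and the red point with its bar (± SE) is miR-21a, at -7.67 and 0.56.

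The miR-21a hairpin was among the more lopsided ones in these livers. Averaged on the log2 scale, 5p reads outnumbered 3p reads 204-fold. The 5p strand was the richer one in 66 of the 118 hairpins and the 3p strand in 52, and miR-21a was 11th among the 66 by this measure. More lopsided in either direction were 17 hairpins, or 14.4%. Next to miR-21a by ratio were let-7i (mean log2 ratio -7.70) and miR-31 (-7.84) on one side and let-7e (-7.66) and miR-215 (-7.62) on the other. Their ratios differed between the diets by -0.42 ± 0.46, -2.08 ± 2.10, 1.82 ± 1.93 and 0.90 ± 1.43 (SE), each with overlapping groups. miR-21a had the smallest standard error of the 5. It also had the most 3p reads, a mean of 2499 against 71.8, 57.7, 37 and 105.5 in the same order. Where a 3p strand had no reads, the added 0.5 set the ratio. This held for miR-31 in soy replicate 2 (-13.69), and for let-7e (-12.54) and miR-215 (-11.35) in regular replicate 1.

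Among the most abundant hairpins, the groups lay apart in this ratio for miR-21a alone, but below that rank they also lay apart for others. The hairpins that give one of the 10 most abundant microRNAs had, besides miR-21a, differences of 0.10 ± 0.40 (SE) for miR-192, -0.24 ± 0.29 for miR-22 and 0.14 ± 0.34 for miR-148a. For miR-30a, miR-10a, miR-122 and miR-27b they were -0.10 ± 0.30, -0.49 ± 0.59, 0.26 ± 0.37 and -0.01 ± 0.43. All 7 had overlapping groups, and none passed limma's test, with adjusted p from 0.811 to 0.986. The abundant hairpin miR-30d also had its groups apart, with a higher ratio in soy (0.56 ± 0.30), and so had miR-126a, with a lower one (-0.38 ± 0.27); both were named after their values were seen. Over all 118 hairpins the ratio was higher in soy in 49 and lower in 69, with a median difference of -0.10.

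**Figure D5:**
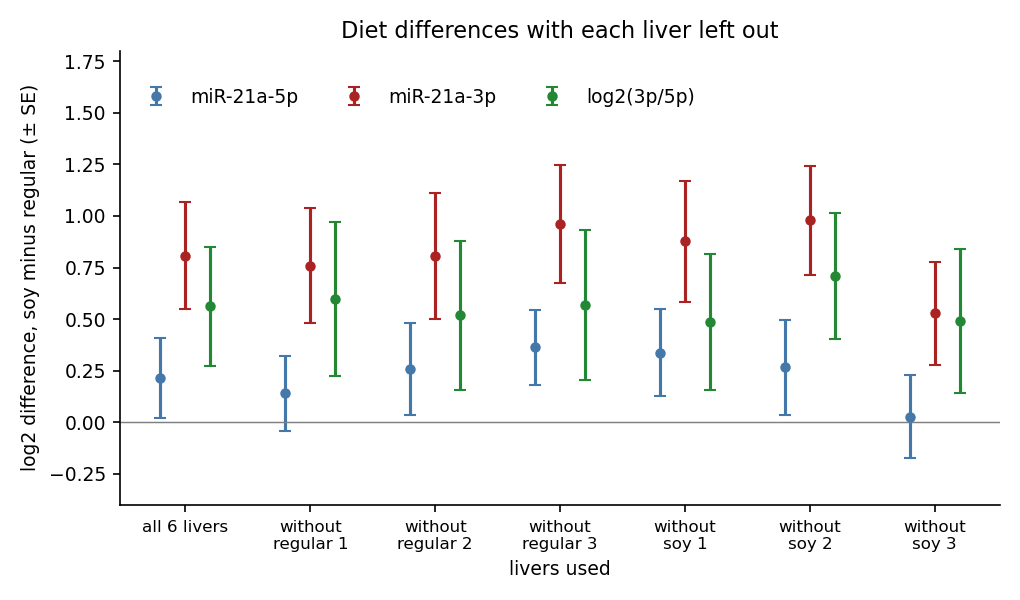
Soy minus regular difference on the log2 scale for miR-21a-5p (blue), miR-21a-3p (red) and their ratio (green), with all 6 livers and with each liver left out. Bars are ± SE. The 3p values run from 0.528 to 0.979, the ratio from 0.485 to 0.708, and the 5p values from 0.028 to 0.363.

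The strands varied together from liver to liver only in part. Over the 6 livers the log2 CPM of 5p and 3p had a Pearson r of 0.789 (exact permutation p = 0.0736) and a Spearman rho of 0.6 (exact permutation p = 0.242). Without regular replicate 1 and soy replicate 3, the livers farthest from the median 5p level, r was -0.595 over 4 livers (-0.16 with CPM by total reads). Leaving out these extremes narrows the range of 5p, so this r cannot tell how closely the strands vary together. With either liver alone left out, r stayed positive (0.64 without regular replicate 1 and 0.494 without soy replicate 3, over 5 livers). Both strands were lowest in regular replicate 1 and highest in soy replicate 3. Among regular livers both rose in the same order, from replicate 1 to replicate 3. Among soy livers, replicate 1 lay below replicate 2 in 5p and above it in 3p.

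Of the 5 microRNAs whose levels followed each strand most closely, 0 were shared by both strands. Among 211 others with a mean of at least 10 CPM, those of highest Pearson r with miR-21a-5p over the 6 livers were let-7i-5p (0.933), let-7g-5p (0.926), miR-223-3p (0.92), a microRNA of myeloid cells, miR-872-5p (0.913) and miR-375-3p (0.911), a microRNA of endocrine cells. For miR-21a-3p they were miR-30d-3p (0.957), miR-141-3p (0.951), an epithelial microRNA, miR-106b-5p (0.904), miR-425-5p (0.862) and miR-22-3p (0.853). The partner strand came 19th for 5p and 11th for 3p. These are descriptions over 6 libraries that share the diet contrast, and each is the top of a ranking.

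Other microRNAs of inflammation, injury and fibrosis, a group in which miR-21 is usually placed, had 19 measured members besides miR-21a. In soy 13 stood higher and 6 lower, edgeR called 0 (0% of all 437), and 0 were at an unadjusted p under 0.05, where the share over all microRNAs was 5.03% (22 of 437). Their median log2 fold change was 0.16, against -0.02 over all 437 microRNAs, of which 212 were higher and 225 lower. The list was not split by the direction that each member is known to take in these states. Its counts and median therefore have no single expected sign. miR-27b-3p was at 0.09 ± 0.13 (SE), miR-122-5p, the main hepatocyte microRNA, at -0.37 ± 0.18, and miR-146b-5p, a feedback regulator of Toll-like receptor signalling, at 0.42 ± 0.19 with 375.7 ± 17.5 CPM under soy and 281.8 ± 43 CPM under regular chow (SD, n = 3).

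Hepatocyte microRNAs summed to 285800 to 325700 CPM in soy and 295700 to 353600 CPM in regular libraries (by total reads), with none of the 8 at 0. Most of this sum was miR-192-5p and miR-148a-3p. Their mean TMM-scaled levels were 209000 and 70060 CPM in soy and 194100 and 94760 CPM in regular livers. miR-122-5p stood at 18490 and 23920 CPM, and the sum alone does not check the tissue label. In whole tissue, a change in the number of cells of a type and a change in RNA per cell cannot be told apart. The sums of leukocyte and Kupffer cell microRNAs lay apart between the diets, as miR-21a-3p did. They came to 2811 to 3594 CPM in soy and 2268 to 2398 CPM in regular libraries, with the highest sum in soy replicate 3, where miR-21a-3p was also highest. Of the 8, 6 were higher and 2 lower in soy, none was at 0, and edgeR called 0. At an unadjusted p under 0.05 there were 2 of the 8, against 5.03% (22 of 437) over all microRNAs. Without the filter on low counts, the setting that called miR-21a-3p, edgeR also called miR-142a-5p (adjusted p = 0.0076) and miR-150-5p (adjusted p = 0.0373), where 8 of 716 microRNAs (1.12%) were called. The others called there were miR-10b-5p, miR-375-3p, miR-215-5p, miR-592-5p and miR-455-3p, none of them on this list. miR-142a-5p was at 0.75 ± 0.26 (SE), miR-150-5p, of mature lymphocytes, at 0.86 ± 0.25 and miR-146a-5p at 0.26 ± 0.18. One of the lower members was miR-223-5p, at -1.46 ± 1.26. The log2 ratio of 3p to 5p of miR-142a differed by -0.94 ± 0.54, soy minus regular. Both were named after their values were seen. Endothelial microRNAs also lay apart, at 19990 to 20690 against 15800 to 17380 CPM, from miR-126a-5p (0.37 ± 0.13), while miR-126a-3p was at -0.01 ± 0.18, with 0 of the 2 called by edgeR and 1 at an unadjusted p under 0.05, where the share over all microRNAs was 5.03%. The part of these cell types in the miR-21a values was not tested.

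For the remaining cell types the summed levels overlapped between the diets. Mesenchymal microRNAs, which mark stellate and smooth muscle cells, summed to 18310 to 24070 CPM in soy and 16800 to 23770 CPM in regular libraries. Of 7 tested, 4 were higher and 3 lower in soy, with miR-143-3p at 0.23 ± 0.18 (SE), miR-199a-5p at 0.17 ± 0.23 and miR-145a-5p at -0.96 ± 0.22. The sign for miR-145a-5p follows the labels and is opposite to the one the study lists. MicroRNAs of bile duct and other epithelium summed to 911.3 to 970.3 and 851.7 to 1031 CPM, with 3 higher and 3 lower, among them miR-31-5p at -0.02 ± 0.16, miR-200b-3p at -0.03 ± 0.22 and miR-141-3p at 0.86 ± 0.24. Erythroid microRNAs summed to 1383 to 1409 and 792.8 to 1842 CPM, with 3 higher and 2 lower, and values of 0.12 ± 0.28 for miR-451a, 0.18 ± 0.38 for miR-144-5p and 0.72 ± 0.38 for miR-144-3p. Of the hepatocyte microRNAs 5 were higher and 3 lower, with miR-192-5p at 0.11 ± 0.15 and miR-148a-3p at -0.44 ± 0.15. edgeR called 0 members in each of these lists (adjusted p of at least 0.295), while at an unadjusted p under 0.05 there was 1 hepatocyte, 1 mesenchymal, 1 epithelial and 0 erythroid microRNA, of 8, 7, 6 and 5 tested and against 5.03% over all microRNAs. DESeq2 called 1 member of them, miR-145a-5p. Ranges that did not overlap, with soy higher, were found for 0 of 8 hepatocyte, 1 of 7 mesenchymal, 2 of 6 epithelial and 0 of 5 erythroid members (7.32% over all microRNAs), and with soy lower for 0, 1, 0 and 1 of them (24 of 437, or 5.49%, over all microRNAs).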

How the data were processed

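The deposited count table holds whole reads per mature microRNA and library, without normalization. The libraries were made with a TruSeq small RNA kit and read as single ends on a NextSeq instrument. The authors also deposited log2 values, scaled between libraries and limited to counts of at least 4 reads, which served only as an alternative. When checked against the counts, their scaling followed library totals. Which aligner, build and microRNA release were used is not given in the sources used here, and reads matching several names can be lost or moved.

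Libraries were grouped by diet, 3 and 3. The filter kept microRNAs that reached 4 reads in 3 or more libraries, and these were tested with edgeR 4.0.16 (quasi-likelihood, TMM, R 4.3.3). The study named a DESeq analysis, and DESeq2 1.42.0 was an alternative. Strand ratios, log2 of reads plus 0.5, were tested with limma 3.58.1 over all hairpins with both strands past the filter. p-values were Benjamini-Hochberg adjusted over all features tested. Single values per library were compared by exact permutation over 20 assignments. Structure came from RNAfold 2.7.2. The main edgeR, limma-voom, DESeq2 and limma ratio fits were tested on simulated counts.

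The members, the lists and the rule for named microRNAs were chosen with earlier results of these data known. The rule named both strands, microRNAs sharing a seed, the 5 most alike in level, hairpins of the 10 most abundant microRNAs, the 2 hairpins on each side by ratio, and in each list the 2 most abundant members and that of smallest p. miR-21b and its base differences fall outside that rule and were added after their values were seen. Labels give the replicates as separate samples, and the study's methods as separate mice.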

Additional observations from a re-analysis of the deposited data

How the results depend on the processing

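Of the 16 alternatives tried for each strand, none turned the sign, which for miR-21a-3p no left-out library could have done. The log2 fold change of miR-21a-5p ranged from 0.0278 to 0.363 (adjusted p from 0.59 to 1) and that of miR-21a-3p from 0.528 to 0.979 (adjusted p from 0.00902 to 0.892). The limits of both fold changes were those with a library left out. The lowest adjusted p of each strand came from edgeR without the filter on low counts. The alternatives were DESeq2, limma-voom, the deposited log2 values, scaling by total reads, RLE or upper quartile, other filters, the replicate block and each library left out; a filter of 10 reads in 3 libraries and the count model for the ratio were chosen after seeing the data. Without the filter on low counts edgeR gave miR-21a-3p a log2 fold change of 0.8936 and called it, with 8 microRNAs called in place of 0, and DESeq2 called 2; with a library left out 0 were called. The strand ratio ranged from 0.485 to 0.708 over 11 alternatives, which are also its limits with a library left out, with 0 hairpins called in each. Left-out libraries gave differences of 0.166 to 0.253 percentage points for the 3p share of miR-21a reads, 0.00711 to 0.0164 for the 3p share of all reads, and -0.0969 to 1.10 for the 5p share of all reads, which was -0.02438 without regular replicate 1 and -0.09693 without soy replicate 3. The Pearson r between the strands ranged from 0.494 to 0.911 with a library left out, also added after seeing the data.

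The libraries share replicate numbers, but deviations of same-numbered libraries correlated at 0.0796, -0.0937 and 0.0178 over all microRNAs tested, so the numbers were not taken as pairs. Even so, miR-21a-5p rose with the replicate number in both diets, and miR-21a-3p did so in regular livers only. Whether same-numbered libraries were handled together was not tested. With the replicate block edgeR called 5 microRNAs, with miR-21a-5p at 0.2154 (adjusted p = 0.907), miR-21a-3p at 0.7774 (adjusted p = 0.058) and the ratio at 0.5612 (limma, adjusted p = 0.865).

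Counting error was at most 2.72% for either strand in any library, against a spread between mice of the same diet of 17.9% to 31.5%.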

Other observations

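The 5p-rich hairpin miR-30d, whose 3p strand was the microRNA most alike in level to miR-21a-3p, was singled out after its values were seen. Its log2 ratio of 3p to 5p was -7.89 ± 0.21 in soy and -8.45 ± 0.207 in regular livers (SD, n = 3), a difference of 0.56 ± 0.30 (SE; limma, adjusted p = 0.811). As with miR-21a, every soy liver lay above every regular liver.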
